A study of Rattus norvegicus with 9 samples.

Results

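The Mas-related G protein-coupled receptors, the Mrgpr family, were followed through an RNA-Seq experiment on rat dorsal root ganglia (DRG), the clusters of sensory neuron cell bodies beside the spinal cord. Every gene whose symbol begins with Mrgpr was taken, which gave 12 of the 20194 genes measured. The rule used the name alone and no measured value. The 12 genes are Mrgprd, Mrgprb4, Mrgprx3, Mrgprx1, Mrgpre, Mrgprf, Mrgprb5, Mrgprb3, Mrgprx2, Mrgprg, Mrgprb13 and Mrgprb2.

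Mrgpr genes code for cell surface receptors that signal through G proteins, and in rodents many of them are found almost solely in small sensory neurons of the DRG and trigeminal ganglia. Different members mark different neurons: Mrgprd, the receptor for the amino acid β-alanine, marks non-peptidergic nociceptors that end in the skin, while the rat gene now called Mrgprx1 (MrgC in older work) codes for a receptor for peptides cut from proenkephalin, and related receptors act in itch. Mrgprb4 marks neurons of hairy skin in mice, mouse Mrgprb2 is a receptor of mast cells (a rat gene of the same symbol need not be its counterpart), and Mrgpre and Mrgprf are orphan members whose ligands are poorly known. Runx1, a transcription factor, is needed for the non-peptidergic nociceptors to turn on several Mrgpr genes during development.

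The samples were 9 libraries, 3 from sham-operated rats, 3 from rats with spared nerve injury (SNI) and 3 from SNI rats given G15. All were adult male Sprague-Dawley rats of 8 to 10 weeks, and the tissue was the L4 to L6 DRG of the operated side. In SNI the tibial and common peroneal branches of the sciatic nerve are tied and cut and the sural branch is left, so these ganglia hold injured and spared neurons together. G15, an antagonist of the G protein-coupled oestrogen receptor GPER, was given into the spinal fluid on day 5 of SNI (1.8 µg/µl, 1 µl), with 24 h of drug exposure and 2% DMSO as solvent in the labels. The titles mark the sham and SNI libraries as controls for G15. The protocol text is the same for every sample and does not say whether these controls received a catheter and the solvent, and if they did not, the drug and the injection cannot be told apart. The study's protocols list β-alanine among the compounds put on DRG in its recordings, and the comparisons here ask how the β-alanine receptor and its relatives stood after injury and after the blocker.

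The labels name no separate animal for each library, the methods give 3 rats per group and a supplementary list gives 6, so p-values measure the spread between these libraries. The extraction text of the labels speaks of macrophages, but the libraries read as DRG: Prph, an intermediate filament of peripheral neurons, stood at a mean FPKM of 1342 in sham, 1662 in SNI and 1769 in SNI + G15. FPKM counts the fragments of a gene per kilobase of transcript, scaled to the size of the library. Atf3, a transcription factor induced in axotomised neurons, was between 3.61 and 4.3 FPKM in the sham libraries and between 132.39 and 143.2 in all 6 SNI libraries. Libraries held 18484557 to 18756736 estimated counts each. SNI + G15 replicate 3 stood apart from its group, with a chi-square per degree of freedom of 9.24 and 8.93 against the other 2 libraries, where all other pairs of one group lay between 2.70 and 4.92. The changes of the expressed members in SNI + G15 are given with and without it. For the gene lists a count is given without it where leaving it out moved the count by over 1.5 times, and summed levels include it.

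On the RefSeq map of the rat genome (GRCr8) all 12 genes lie on chromosome 1. Mrgprx3, Mrgprx1, Mrgprb4 and Mrgprb5 follow each other with no other protein-coding gene between them, Mrgprb13, Mrgprx2, Mrgprb3 and Mrgprb2 come next, and Mrgprg, Mrgpre, Mrgprf and Mrgprd lie beyond a further 1064 protein-coding genes. Mrgprf and Mrgprd are direct neighbours there, and 16 protein-coding genes lie between Mrgpre and Mrgprf. RefSeq windows of 300 bases around the gene start, 250 before and 50 after it, were at hand for 10 of the 12 genes. Mrgprd and Mrgprf had no window, so nothing is known here of the motif at either gene. The 10 windows were searched on both strands for TGTGGT and TGCGGT, the letters RUNX factors are known to prefer. These letters occurred in 22.9% of all 33469 RefSeq windows of the same length and in 3 of the 10 Mrgpr windows. Those were the windows of Mrgprx3 with 2 matches, Mrgprx1 with 1 and Mrgprb3 with 1. In 6 of the 10 the gene start is ATG, and 1 of these 6 held a match. Such windows may not surround a transcription start, which limits the comparison with all windows.

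Windows are shown for members that moved in opposite directions after injury. Those of 3 neighbours that fell, Mrgprx3 (chr1:106883096-106883395), Mrgprx1 (chr1:106943265-106943564) and Mrgprb4 (chr1:106989869-106990168), stand beside that of Mrgpre (chr1:208398981-208399280), which rose. All 4 lie on the minus strand and are written 5′ to 3′, with the motif in capitals. The gene models of Mrgprx1 and Mrgprb4 begin at the start codon, so those windows end with coding bases.

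Mrgprx3: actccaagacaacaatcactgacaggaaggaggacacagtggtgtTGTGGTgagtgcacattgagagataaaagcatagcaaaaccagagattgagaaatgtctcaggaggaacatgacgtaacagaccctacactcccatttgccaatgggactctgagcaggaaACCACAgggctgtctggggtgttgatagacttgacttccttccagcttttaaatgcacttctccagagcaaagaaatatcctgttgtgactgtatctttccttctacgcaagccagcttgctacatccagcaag

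Mrgprx1: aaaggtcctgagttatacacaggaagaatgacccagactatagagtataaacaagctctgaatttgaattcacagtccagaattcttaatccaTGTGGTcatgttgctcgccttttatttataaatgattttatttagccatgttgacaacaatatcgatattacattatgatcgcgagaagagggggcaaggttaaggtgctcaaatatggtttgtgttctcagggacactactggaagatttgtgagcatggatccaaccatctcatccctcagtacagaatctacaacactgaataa

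Mrgprb4: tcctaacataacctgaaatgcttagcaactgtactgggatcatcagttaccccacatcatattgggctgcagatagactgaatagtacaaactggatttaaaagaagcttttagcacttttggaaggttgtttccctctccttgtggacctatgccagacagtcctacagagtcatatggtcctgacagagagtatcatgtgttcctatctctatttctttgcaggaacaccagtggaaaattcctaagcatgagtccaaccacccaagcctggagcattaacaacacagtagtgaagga

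Mrgpre: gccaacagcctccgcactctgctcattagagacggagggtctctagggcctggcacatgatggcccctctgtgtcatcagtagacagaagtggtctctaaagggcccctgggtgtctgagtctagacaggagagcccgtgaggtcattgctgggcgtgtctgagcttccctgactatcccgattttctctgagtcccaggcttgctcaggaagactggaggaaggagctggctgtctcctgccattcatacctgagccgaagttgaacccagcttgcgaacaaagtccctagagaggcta

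Counted from the gene start, the matches in the Mrgprx3 window began at -205 and -84, and that of Mrgprx1 at -157. No match was found in these 300 bases of Mrgprb4 or Mrgpre. These letters were thus absent from the window of a member that fell and of one that rose. In the first 50 coding bases, 28 bases (56%) of Mrgprx1 and Mrgprb4 were the same at the same position. The pairs compared ran from 9 (18%) to 34 (68%), the latter for Mrgprb13 and Mrgprb2, and the neighbours Mrgprb4 and Mrgprb5 shared 16 (32%). No gaps were allowed, so similarity at a shifted position is missed. All 50 of these Mrgprb5 bases stand unbroken in the Mrgprb4 window above, before its start codon. The 32% therefore does not measure how alike these neighbours are.

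The family split sharply by level. Mrgprb4, Mrgprd, Mrgprx3, Mrgpre, Mrgprx1 and Mrgprf were between 4.86 and 29.31 FPKM in every library, while the other 6 genes never reached 1 FPKM in any. In the sham ganglia Mrgprb4 was highest at 28.6 ± 1.18 FPKM (mean ± SD, n = 3), above 78.1% of the 14305 genes that reached 1 FPKM in at least 1 library. Mrgprd followed at 22.1 ± 1.68, Mrgprx3 at 19.8 ± 0.564 and Mrgpre at 16.3 ± 0.976. Mrgprx1 at 7.71 ± 0.660 and Mrgprf at 5.18 ± 0.444 were the lowest of the 6. Only Mrgprd and Mrgprx3 overlapped as neighbours in this order.

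After SNI the order changed. Mrgprb4 and Mrgpre shared the top, at 19.9 ± 1.87 and 19.9 ± 0.401 FPKM, and their libraries overlapped. Mrgprx3 and Mrgprd came next and overlapped, and so did Mrgprf and Mrgprx1 at the bottom. In SNI + G15 Mrgpre had the highest mean, 18.3 ± 2.49 FPKM, overlapping Mrgprb4 at 17.1 ± 0.615, and below them Mrgprx3, Mrgprd, Mrgprf and Mrgprx1 did not overlap their neighbours.

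**Figure D1:**
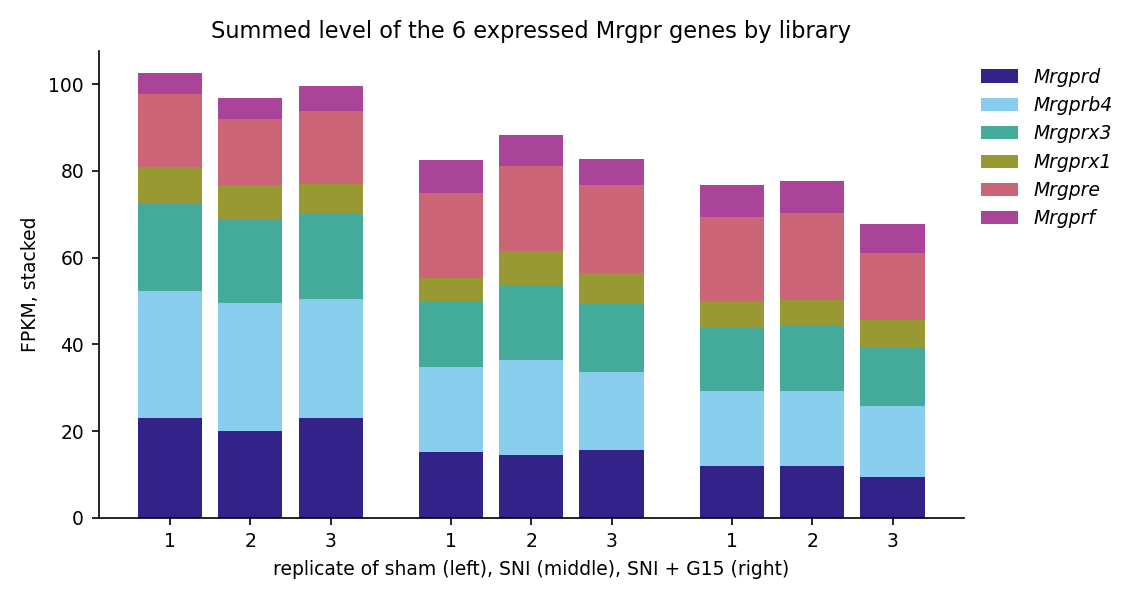
Stacked FPKM of the 6 expressed Mrgpr genes in each of the 9 libraries, 1 bar per library. The stacks of the 3 groups do not overlap in height, running from 96.88 to 102.57 FPKM for sham, from 82.52 to 88.24 for SNI and from 67.79 to 77.77 for SNI + G15, and the Mrgprd segment shrinks from 22.1% to 14.9% of the stack.

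Summed over these 6 genes, the libraries of the 3 groups did not overlap, with means of 99.7 FPKM in sham (SD 2.85), 84.5 in SNI (SD 3.25) and 74.1 in SNI + G15 (SD 5.496). The lowest sum, 67.79 FPKM, was that of SNI + G15 replicate 3, and the other 2 libraries of that group were at 76.77 and 77.77. The make-up of the sum moved as well. Mrgprd made 22.1% of it in sham, 17.8% in SNI and 14.9% in SNI + G15, and Mrgprb4 made 28.7%, 23.6% and 23.0%. Mrgpre, by contrast, made 16.4%, 23.5% and 24.7%, and Mrgprf 5.20%, 8.17% and 9.70%. A bulk measurement cannot tell fewer cells of a type from less RNA per cell, here or in any value that follows.

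Mrgprd, the β-alanine receptor (NCBI gene 293648), had the steepest course of the 6. Its FPKM was 22.95, 20.13 and 23.13 in the sham libraries, 15.10, 14.55 and 15.54 in the SNI libraries and 11.87, 11.84 and 9.40 in the SNI + G15 libraries. The 3 groups did not overlap, sham being highest and SNI + G15 lowest. Tested on the estimated counts with edgeR's quasi-likelihood test and adjusted over the 14305 genes, Mrgprd fell in SNI against sham, with a log2 fold change of -0.58 (SE 0.0444, adjusted p = 2.2e-06), and it was lower again in SNI + G15 than in SNI, by a log2 fold change of -0.42 (SE 0.0640, adjusted p = 0.00362). SNI + G15 against sham gave -1.02 (SE 0.0668, adjusted p = 1.93e-06), a fold of 0.492. Without SNI + G15 replicate 3, its lowest library, the change against SNI was -0.35 (adjusted p = 0.00111). Under the 17 alternative fits the adjusted p of that change ran from 1.47e-05 to 0.0234.

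Mrgprb4 (gene 404658), in mice a marker of touch-responsive fibres of hairy skin, fell about as far after injury. It stood at 29.29, 29.31 and 27.26 FPKM in sham, 19.66, 21.88 and 18.16 in SNI and 17.44, 17.41 and 16.36 in SNI + G15. Sham lay above both SNI groups with no overlap, and the SNI + G15 libraries lay just under the lowest SNI library. The log2 fold change was -0.56 in SNI against sham (SE 0.0700, edgeR adjusted p = 9.1e-05) and -0.78 in SNI + G15 against sham (adjusted p = 8.59e-06). Between SNI + G15 and SNI it was -0.21 (95% interval -0.38 to -0.03) and did not pass (adjusted p = 0.102).

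Mrgprx3 (gene 252960), known as MrgA in older rat work, stood at 20.39, 19.28 and 19.66 FPKM in sham. It was at 14.95, 16.98 and 15.59 in SNI and 14.40, 15.28 and 13.38 in SNI + G15, both groups clear of sham but overlapping each other. Its log2 fold changes against sham were -0.35 for SNI (SE 0.0604, edgeR adjusted p = 0.000829) and -0.50 for SNI + G15 (adjusted p = 0.000253). The difference between SNI + G15 and SNI was -0.13 (95% interval -0.29 to 0.03, adjusted p = 0.25).

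Mrgprx1 (gene 282547), the receptor for proenkephalin peptides, changed least among the genes that fell. Its FPKM was 8.20, 7.97 and 6.96 in sham, 5.51, 8.09 and 7.10 in SNI and 6.39, 5.70 and 6.48 in SNI + G15, so that sham and SNI overlapped in FPKM. In estimated counts, on which the test ran, sham (292.4 to 329.25) and SNI (232.31 to 284.37) did not overlap. The log2 fold change of SNI against sham was -0.30 (SE 0.0842, edgeR adjusted p = 0.0134). That call was lost without sham replicate 1 (-0.25, adjusted p = 0.0524), without SNI replicate 1 (-0.24, adjusted p = 0.0567) and in limma-trend on log2(FPKM + 1) (-0.15, adjusted p = 0.334). SNI + G15 was lower than sham by -0.45 (adjusted p = 0.000954) and differed from SNI by -0.12 (95% interval -0.32 to 0.07, adjusted p = 0.342).

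The orphan receptors Mrgpre (gene 404660) and Mrgprf (gene 266762) moved the other way after injury. Mrgpre stood at 16.88, 15.19 and 16.88 FPKM in sham and 19.74, 19.58 and 20.34 in SNI, with no overlap, and rose by a log2 fold change of 0.22 (SE 0.0558, edgeR adjusted p = 0.00862). With all 9 libraries in one fit this change had an adjusted p of 0.0984 at 0.21. The SNI + G15 libraries were at 19.21, 20.15 and 15.45 FPKM, spanning sham and SNI, and replicate 3 was the low one. Against SNI the log2 difference was -0.10 (95% interval -0.33 to 0.13, adjusted p = 0.541) with that library and 0.02 without it. Against sham it was 0.10 (adjusted p = 0.483) with it and 0.23 (adjusted p = 0.0253) without it.

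Mrgprf was at 4.86, 5.00 and 5.69 FPKM in sham, 7.56, 7.16 and 5.99 in SNI and 7.46, 7.39 and 6.72 in SNI + G15. All 6 libraries of injured rats lay above all 3 of sham. It rose against sham, with log2 fold changes of 0.38 for SNI (SE 0.101, edgeR adjusted p = 0.0103) and 0.44 for SNI + G15 (SE 0.0879, adjusted p = 0.00268). SNI + G15 and SNI differed by 0.08 (95% interval -0.13 to 0.29, adjusted p = 0.584), and by -0.01 without SNI replicate 3.

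**Figure D2:**
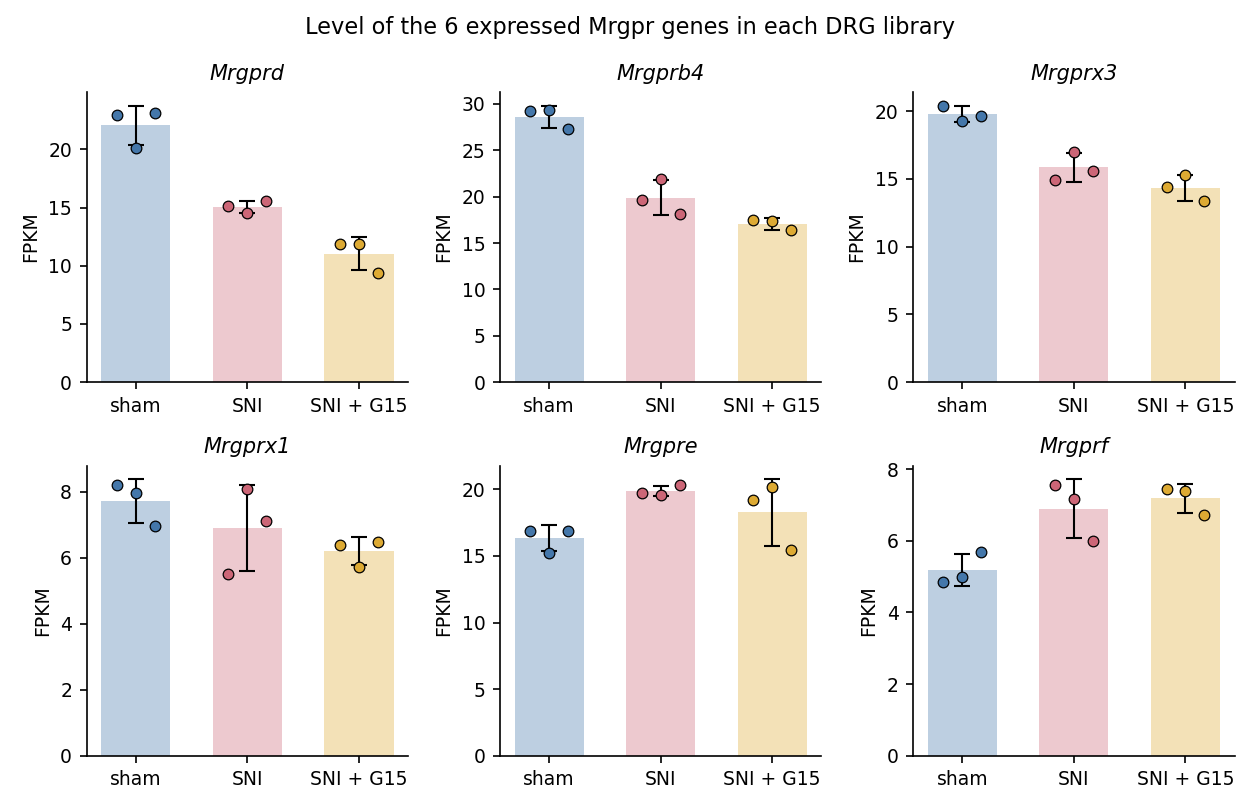
FPKM of 6 Mrgpr genes in sham, SNI and SNI + G15 (points: libraries, bars: means, error bars: SD, n = 3 per group). Mrgprd steps down from 22.1 to 15.1 to 11.04 FPKM, Mrgprb4, Mrgprx3 and Mrgprx1 are highest in sham on average, and Mrgpre and Mrgprf are lowest in sham.

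Counted over the family, 4 of the 6 expressed genes fell and 2 rose in SNI against sham by edgeR. The other 6 of the 12 were under the 1 FPKM filter and are outside these counts. Of all 14305 genes tested, 45.7% were called in this comparison, 22.4% lower and 23.3% higher. The FPKM of sham and SNI did not overlap in 5 of the 6 expressed members, Mrgprx1 being the exception, and in 53.9% of all genes tested. In SNI + G15 against SNI, 1 of the 6 was called, Mrgprd. Of all genes tested 15.2% were called there, 7.25% being lower and 7.98% higher. Of the expressed members Mrgprd and Mrgprb4 did not overlap between these groups, nor did 38.3% of all genes tested. In SNI + G15 against sham 4 of the 6 fell and 1 rose. Of all genes tested 43.2% were called there, 21.9% lower and 21.4% higher. The FPKM of 52.9% did not overlap, among them all expressed members other than Mrgpre. A called change was common among all genes in both comparisons with sham, and only 6 members were tested. Whether their share differs from that of all genes was not tested. The number of members called is therefore not a result about the family. Without SNI + G15 replicate 3 the log2 differences from SNI were -0.18 for Mrgprb4 (adjusted p = 0.172), -0.09 for Mrgprx3, -0.10 for Mrgprx1 and 0.12 for Mrgprf, none of them called. Against sham they were then -0.95 for Mrgprd, -0.75 for Mrgprb4, -0.45 for Mrgprx3, -0.41 for Mrgprx1 and 0.49 for Mrgprf, all called. That Mrgprd was called in SNI + G15 against SNI and Mrgprb4 was not does not show that they differ, and the difference between members was not tested. The comparisons share libraries, so they are not independent of each other.

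**Figure D3:**
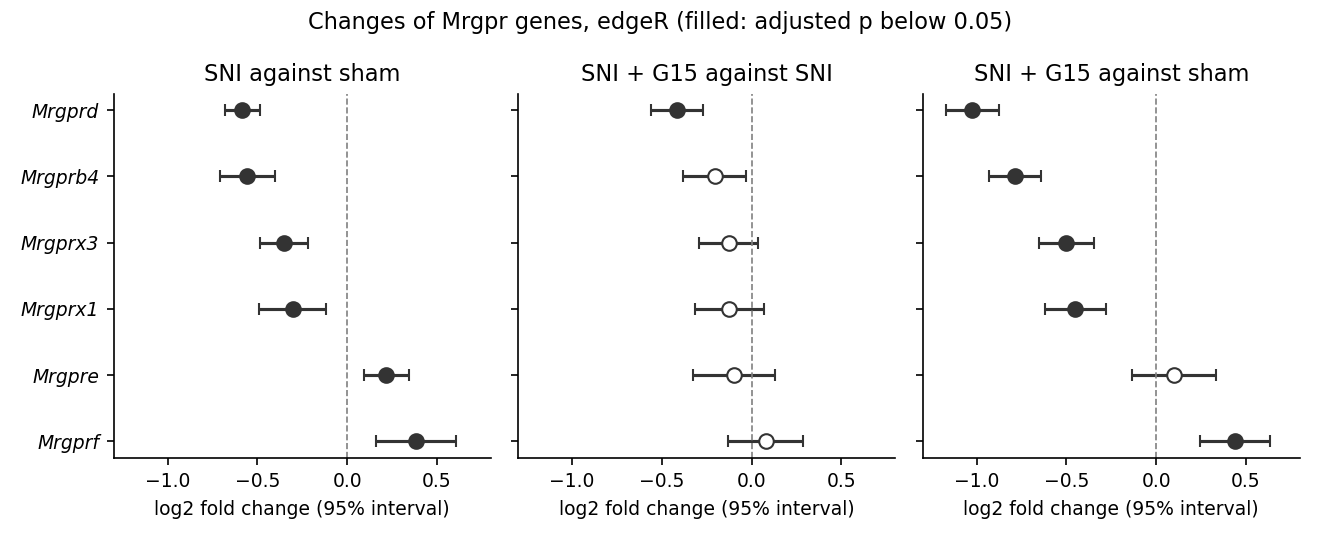
Log2 fold changes of 6 Mrgpr genes in the 3 comparisons (points: edgeR estimates, bars: 95% intervals, filled points: adjusted p below 0.05). Mrgprd lies left of 0 in all 3 panels, and in SNI + G15 against SNI only its point is filled, at -0.42.

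The other 6 genes gave few counts, and a level at this depth is close to the limit of detection. Mrgprb5, next to Mrgprb4 on the chromosome, gave estimated counts of 16.08, 4.24 and 9.49 in the sham libraries, 10.75, 6.61 and 7.35 in the SNI libraries and 5.96, 2.1 and 4.31 in the SNI + G15 libraries. Tested together with every gene that had any count, it was not called in any comparison (edgeR adjusted p = 0.741, 0.22 and 0.129 for SNI against sham, SNI + G15 against SNI and SNI + G15 against sham). In those tests 34.0%, 9.63% and 32.5% of genes were called. Mrgprb3 had at most 2.74 counts in a sham library and 3.01 to 6.02 in the libraries of injured rats and was not called either (adjusted p = 0.191, 0.916 and 0.15). Mrgprx2 reached at most 4.05 counts and was at 0 in 3 of the 9 libraries. Mrgprg, Mrgprb13 and Mrgprb2 never exceeded 1 count and were at 0 in 5, 6 and 8 libraries.

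Estimated counts that are not whole can arise where reads are shared out between similar genes or between transcripts. For Mrgprd, Mrgprb4, Mrgpre, Mrgprx1 and Mrgprb5 they were not whole in any of the 9 libraries (tolerance 0.005), while those of Mrgprx3 and Mrgprf were whole in every library. Over the 14305 genes, 68.7% to 69.3% of the values of a library were whole. Mrgprb4 and Mrgprb5 have 1 annotated transcript each, and the counts of Mrgprf stayed whole although they were split over 2, so a split between transcripts of one gene need not leave a broken sum. The levels of Mrgprd, Mrgprb4, Mrgpre, Mrgprx1 and Mrgprb5 are therefore all uncertain by the share of reads that other genes may take or give, and how large that share is was not tested. Of the relatives on the RefSeq map, Mrgprb3l and Mrgprb13-ps1 were measured under other names and reached at most 1 count each. Mrgprb4-ps1, Mrgprb13-ps2, Mrgprx2l and Mrgprgl1 were not among the genes measured. Whether reads of these were given to the members was not tested.

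The deposited counts of Mrgprd, Mrgprx1, Mrgpre and Mrgprf are also split by transcript. The minor one of the 2 Mrgprf transcripts held at most 2.91% of its counts in any library. Mrgprd has 2 transcripts as well, of which the larger held 90.5% to 93.6% of its counts, and both followed the same course. The larger had mean counts of 1388 in sham, 945 in SNI and 705 in SNI + G15, and the smaller 128, 87.7 and 62. Since FPKM is per length, the smaller one weighs more there, and of the 22.1 FPKM of Mrgprd in sham 7.31 came from it and 14.8 from the larger. The place of Mrgprd in the order of levels therefore rests on this split. In Mrgprx1 they parted. Its larger transcript had mean counts of 268, 206 and 190, with the sham libraries (250.51 to 289.3 counts) above all others, whereas its smaller one had 39.7, 48.5 and 41.9 and ranged from 20.82 to 66.29 counts over the libraries. The smaller transcript gave 2.14, 2.62 and 2.26 mean FPKM and the larger 5.57, 4.28 and 3.94, so that the FPKM of the gene overlapped between sham and SNI where its counts did not.

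Mrgpre has 6 transcripts, and their shares were unstable from library to library. The largest held 37.3% to 63.7% of the gene's counts and the second 3.67% to 34.6%. Of the other 4, those ranked 3, 5 and 6 by mean count were at 0 in 1, 5 and 2 libraries. No statement on the isoforms of Mrgpre is drawn from these splits, and the value of the gene as a whole is used.

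**Figure D4:**
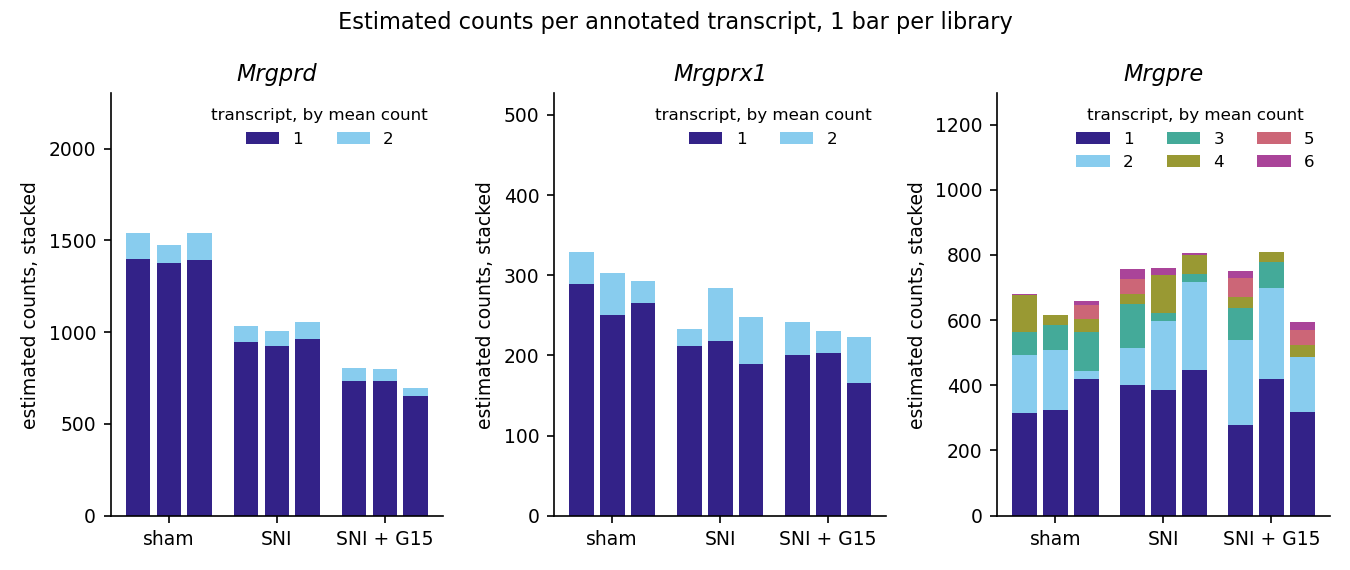
Estimated counts of Mrgprd, Mrgprx1 and Mrgpre in each library, stacked by annotated transcript (numbered by mean count). Both Mrgprd transcripts step down from sham to SNI to SNI + G15, the smaller Mrgprx1 transcript varies between 20.82 and 66.29 counts with no such course, and the Mrgpre transcripts trade places between libraries.

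Across the 9 libraries the pattern of Mrgprb4 was most like that of Mrgprx3 among members (Pearson r = 0.97 on log2(FPKM + 1)), and that of Mrgprd was like Mrgprx3 (0.95) and Mrgprb4 (0.93). Mrgpre and Mrgprf had an r of 0.64. The libraries share their groups, so these values describe the same steps between groups as the levels do. Over all genes tested, Gabbr2, Ube2o and Chst15 were among the 5 nearest to Mrgprd (r of 0.995 to 0.997). Gabbr2, a subunit of the GABA-B receptor, went from a mean FPKM of 56.1 in sham to 43.98 in SNI and 36.4 in SNI + G15. Nearest to Mrgprb4 were Trap1, Tspyl1, Rapgef4, Tox3 and Cpeb1, and nearest to Mrgprx3 Kat7, Astn2, Slitrk1, Tox3 and Usp20, with Tox3 in both. Mrgpre was nearest to Tnrc18, Chrnb2, Micall1, Tmem131 and Ttyh2, among them the nicotinic receptor subunit Chrnb2 (40.6, 50.8 and 45.1 FPKM). Mrgprf was nearest to Mfsd11, C5ar1, Kdm4a, Scnn1a and Bmf, and Mrgprx1 had the loosest neighbours, Dld, St13, Tigar, Npy1r and Ntn4 (r of 0.91 to 0.93). On log2(CPM + 1) none of the 5 names of Mrgprd or Mrgprx1 stayed among the nearest 5, and 2 of Mrgprb4, 3 of Mrgpre and 4 each of Mrgprx3 and Mrgprf did.

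Ligands and the enzymes and transporters that handle them were followed as a list of 17 genes, of which 11 passed the filter. In SNI against sham 5 fell and 1 rose by edgeR (median log2 fold change -0.31, against 0.00 over all genes tested), in SNI + G15 against SNI 1 fell and 2 rose, and in SNI + G15 against sham 6 fell and 1 rose. Penk, the precursor of enkephalins and of the peptides that act on Mrgprx1, was at 7.85, 9.39 and 9.47 FPKM in sham, 4.03, 3.48 and 3.21 in SNI and 5.49, 5.30 and 7.89 in SNI + G15, with no overlap between SNI and either other group. It fell by a log2 fold change of -1.35 in SNI (SE 0.118, adjusted p = 6.3e-06) and was higher by 0.82 in SNI + G15 than in SNI (SE 0.178, adjusted p = 0.0175), or by 0.60 without SNI + G15 replicate 3 (adjusted p = 0.0168). That second change had an adjusted p of 0.073 without SNI replicate 2 and 0.0764 without SNI replicate 3.

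Genes of β-alanine handling moved in both directions. Slc6a6, a transporter of taurine and β-alanine, rose in SNI (0.28, adjusted p = 0.0082) and was higher again in SNI + G15 than in SNI (0.32, adjusted p = 0.0119), by edgeR. Slc36a1, a transporter of small amino acids, fell in SNI (-0.24, adjusted p = 0.0115) and was lower again in SNI + G15 (-0.41, adjusted p = 0.0142). Abat, the transaminase that breaks down GABA and β-alanine, fell from a mean of 17.1 FPKM in sham to 13.1 in SNI (-0.40, adjusted p = 6.67e-05) and had a log2 fold change of -0.68 in SNI + G15 against sham (adjusted p = 0.000404). Slc6a13, a GABA transporter, had a log2 fold change of -1.42 in SNI (adjusted p = 2.22e-07), and Csad, a decarboxylase of taurine synthesis, one of -0.48 (adjusted p = 3.67e-05).

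The family is named after Mas1, whose ligand belongs to the angiotensin system, so these genes made up a list of their own. Mas1 was low, between 0.22 and 0.49 FPKM in all libraries, and under the filter. Of 11 listed genes 7 were tested, and 2 fell and 1 rose in SNI against sham, the same counts as in SNI + G15 against sham. Agt, the angiotensin precursor, fell by a log2 fold change of -1.01 (adjusted p = 2.41e-05) and Ace, a converting enzyme, rose by 0.31 (adjusted p = 0.00938) in SNI, by edgeR. Mme, neprilysin, fell by 0.30 in SNI (adjusted p = 0.0174, lost in 5 of 17 alternatives). In SNI + G15 against SNI, Ace was higher by 0.47 (adjusted p = 0.0106) and Mme lower by -0.61 (adjusted p = 0.0105).

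Downstream of the receptors, 23 of 25 genes for G protein subunits, phospholipase C, protein kinase C, arrestins and receptor kinases were tested. In SNI against sham 9 fell and 6 rose by edgeR (median -0.07), in SNI + G15 against SNI 3 fell and none rose, and in SNI + G15 against sham 11 fell and 5 rose. Gnaq, the Gq subunit through which many Mrgpr receptors signal, did not pass in SNI (-0.07, adjusted p = 0.283), nor in SNI + G15 against SNI (-0.20, adjusted p = 0.0551), but was lower in SNI + G15 than in sham (-0.29, adjusted p = 0.00326). The 3 that fell in SNI + G15 against SNI were Gna14 (-0.19, adjusted p = 0.0266), Gnai1 (-0.24, adjusted p = 0.0193) and Prkce (-0.24, adjusted p = 0.0198). With 1 SNI library left out, 0 or 1 of the list was called in that comparison. Among those that rose in SNI were Arrb1, a β-arrestin that takes receptors off the surface, by 0.75 (adjusted p = 5.07e-08), and the receptor kinase Grk6 by 0.50 (adjusted p = 9.29e-06).

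Of 13 channels through which such receptors are known to act on neurons, or that the same neurons carry, 6 fell and 4 rose in SNI, 4 fell and none rose in SNI + G15 against SNI, and 8 fell and 1 rose in SNI + G15 against sham. Scn11a, the sodium channel Nav1.9 of small nociceptors, fell by a log2 fold change of -0.42 in SNI (edgeR adjusted p = 3.5e-06) and was lower by -0.20 in SNI + G15 than in SNI (adjusted p = 0.0183). Trpv1, the capsaicin receptor, gave -0.37 (adjusted p = 2.69e-05) and -0.18 (adjusted p = 0.0262) in the same 2 comparisons, and Trpa1 gave -0.17 (adjusted p = 0.0103) and -0.15 (adjusted p = 0.142). The potassium channel Kcnq5 fell in SNI (-0.48, adjusted p = 8.15e-05). Without any 1 of the SNI libraries, 1 channel was called in SNI + G15 against SNI.

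Of the 12 transcription factors and growth factor receptors of the lineage that expresses these receptors, 6 fell and 2 rose in SNI, 2 fell and 1 rose in SNI + G15 against SNI, and 7 fell and 2 rose in SNI + G15 against sham. Runx1 changed little, from a mean of 11.31 FPKM in sham to 10.98 in SNI and 10.54 in SNI + G15. Its log2 fold change of -0.18 in SNI against sham (edgeR adjusted p = 0.0468) did not pass in 9 of 17 alternatives, and in SNI + G15 against SNI it was -0.03 (adjusted p = 0.704). Gfra2, the neurturin co-receptor of non-peptidergic neurons, fell in SNI (-0.27, adjusted p = 0.00147) and was lower again in SNI + G15 (-0.22, adjusted p = 0.0356). Gfra1, the GDNF co-receptor, rose by 1.29 in SNI (adjusted p = 3.97e-10), and Prdm12, a nociceptor factor, gave -0.53 (adjusted p = 1.89e-05). Tlx3 was higher by 0.30 in SNI + G15 than in SNI (adjusted p = 0.00939). Of these genes 0 or 1 was called in that comparison with 1 SNI library left out.

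The 14 other genes used as markers of non-peptidergic nociceptors were all tested. In SNI 7 fell and 1 rose (median log2 fold change -0.24), in SNI + G15 against SNI 7 fell and none rose (-0.23), and in SNI + G15 against sham 10 fell and none rose (-0.43), by edgeR. The 7 became 5, 5 and 4 without SNI replicates 1, 2 and 3. Their summed level lay between 516.21 and 526.94 FPKM in the sham libraries, between 453.92 and 464 after SNI and between 389.02 and 442.02 after SNI + G15, and no marker was at 0. Slc16a12, a transporter, stepped down as Mrgprd did, at -0.74 (adjusted p = 6.16e-06) and -0.73 (adjusted p = 0.00122) in the first 2 comparisons. So did Grik1, a kainate receptor subunit, at -0.59 (adjusted p = 5.86e-07) and -0.28 (adjusted p = 0.00282). Lpar3, a lysophosphatidic acid receptor, rose in SNI (0.33, adjusted p = 0.00254) and was lower by -0.64 in SNI + G15 than in SNI (adjusted p = 0.000617). P2rx3, the ATP-gated channel most used to mark these neurons, passed in neither (0.08, adjusted p = 0.0998, and -0.13, adjusted p = 0.206). These markers moved with Mrgprd, and their part in its change was not tested.

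Markers of itch neurons, in which other Mrgpr genes are known, formed a list of 13, of which 11 were tested. In SNI 6 rose, 1 fell and 4 were not called (median 0.42), and in SNI + G15 against SNI 3 rose and 2 fell (median 0.02). Il4r and Il13ra1, interleukin receptor chains, rose by 1.43 (edgeR adjusted p = 1.03e-08) and 1.32 (adjusted p = 6.91e-09) in SNI, and the natriuretic peptide gene Nppb by 1.35 (adjusted p = 0.00199). Sst, somatostatin, fell (-0.53, adjusted p = 2.88e-05) and was higher in SNI + G15 than in SNI (0.38, adjusted p = 0.0225). These interleukin receptor chains are also made by cells of the immune system, and the 10 macrophage markers rose from a summed 125.94 to 136.34 FPKM in sham to 289.23 to 307.48 in SNI, 9 of 10 being called. Their part in the itch list was not tested. The itch markers other than Sst that were called in SNI + G15 against SNI moved both ways, by edgeR. Nts (0.99, adjusted p = 0.00429) and Osmr (0.42, adjusted p = 0.0134) were higher. Jak1 (-0.26, adjusted p = 0.00323) and Cysltr2 (-0.37, adjusted p = 0.00356) were lower. Values with a library left out are not given for Nts, Osmr, Jak1 and Cysltr2.

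The other neuron lists held genes that fell and genes that rose in SNI, where 45.7% of all genes tested were called. Of 12 genes shared by most DRG neurons 7 fell and 3 rose in SNI (median -0.26), of 11 markers of low-threshold and large neurons 8 fell and 1 rose (-0.33), and of 8 peptidergic markers 4 fell and 1 rose (-0.12), by edgeR. In SNI + G15 against SNI the same lists gave 2 fallen and 1 risen (median -0.0026), 3 and 1 (-0.07), and 1 and 1 (-0.02), beside the 7 and none of the non-peptidergic list. In SNI the log2 fold change was -0.45 for Snap25, a synaptic protein of neurons (adjusted p = 3.45e-06), -0.77 for the neurofilament Nefl (adjusted p = 7.3e-09) and -0.66 for Nefh (adjusted p = 1.96e-07), while Prph rose (0.28, adjusted p = 2.7e-05). In SNI + G15 against SNI, genes of these lists were also called lower, by edgeR. Esrrg (-0.64, adjusted p = 0.000615) and Piezo2 (-0.28, adjusted p = 0.00618) are large-neuron markers, and Syt1 (-0.32, adjusted p = 0.00622) is a shared one. Calca, the CGRP gene of peptidergic neurons, was higher (0.24, adjusted p = 0.0253), as were Spp1 (0.15, adjusted p = 0.0278) and Prph (0.10, adjusted p = 0.0496). Values with a library left out are not given for Esrrg, Piezo2, Syt1, Spp1 and Prph. The summed level of the 12 shared neuron genes was 13796.5 to 14142.7 FPKM in the SNI libraries and 14062.7 to 14855 in those of SNI + G15, so these overlapped where Mrgprd did not. A difference between the lists was not tested.

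Markers of other cells of the ganglion moved in SNI + G15 against SNI as well, the comparison in which Mrgprd was lower. Of 12 fibroblast markers 11 rose, with summed levels of 502.71 to 503.6 FPKM in SNI and 684.81 to 707.71 in SNI + G15, and of 9 Schwann cell markers 6 rose. All 7 erythroid markers fell, from 879.56 to 930.28 FPKM in SNI to 532.31 to 593.97 in SNI + G15, after all 7 had risen in SNI. Satellite glia gave 2 risen and 2 fallen of 8, endothelial cells 2 and 1 of 7, and of 4 skeletal muscle markers none was called. Of 13 genes of injured neurons all rose in SNI against sham and 3 rose further in SNI + G15 (6 without its replicate 3). The part of these cells in the level of Mrgprd was not tested.

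Several of these calls in SNI + G15 against SNI did not hold when 1 library was left out, a fit that also has fewer libraries to test with. Those of Gna14, Gnai1, Scn11a, Trpv1, Gfra2 and Calca were lost when any 1 of the SNI libraries was left out. So were those of Penk, Sst and Tlx3 without SNI replicate 2 or 3, of Prkce and Slc36a1 without replicate 1 or 3, of Slc6a6 without 1 or 2, of Ace and Mme without 3, and of Acta2 without 2. Leaving out SNI + G15 replicate 2 ended the calls of Prkce and Sst, and leaving out replicate 1 that of Trpv1. The adjusted p then lay between 0.0521 (Slc6a6) and 0.134 (Gfra2). Mrgprd, Slc16a12, Grik1 and Lpar3 kept theirs in each of these fits.

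**Figure D5:**
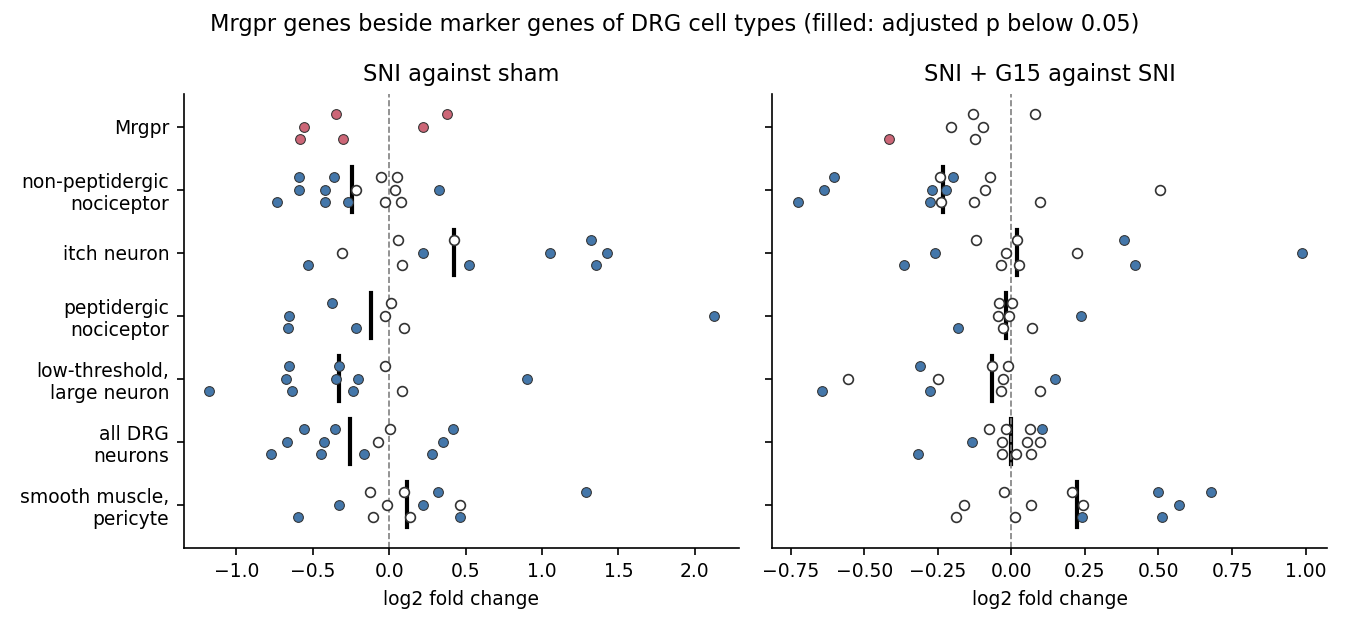
Log2 fold changes of the 6 expressed Mrgpr genes and of marker genes of DRG cell types in SNI against sham (left) and SNI + G15 against SNI (right), 1 point per gene, filled where the edgeR adjusted p is below 0.05, black bars at list medians. In the right panel 7 of 14 non-peptidergic markers and Mrgprd are filled and left of 0, while the medians of the other neuron lists lie near 0.

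Mrgprf and the receptors of mast cells were set beside the cells that may carry them. Smooth muscle and pericyte markers summed to between 85 and 89.53 FPKM in the sham libraries, between 91.99 and 97.83 in those of SNI and between 126.17 and 127.56 in those of SNI + G15. Of 12 tested 4 rose and 2 fell in SNI and 5 rose and none fell in SNI + G15 against SNI. Acta2, smooth muscle actin, rose by 0.32 in SNI (edgeR adjusted p = 0.00328) and was higher by 0.51 in SNI + G15 than in SNI (adjusted p = 0.0113), a comparison in which Mrgprf was not called. Other markers of this list differed in direction in SNI against sham, by edgeR. Des (1.29, adjusted p = 7.1e-06) and Rgs5 (0.46, adjusted p = 0.00257) rose and Myl9 fell (-0.33, adjusted p = 0.00653). Tagln was not called (-0.13, adjusted p = 0.287). The part of smooth muscle and pericytes in the rise of Mrgprf in SNI was not tested. Of 11 mast cell markers 6 were tested, and 3 rose and none fell in SNI + G15 against SNI. These 3, the mast cell proteases Cma1, Cpa3 and Tpsb2, were higher in SNI + G15 than in SNI, with log2 fold changes of 3.09 (adjusted p = 0.00134), 2.43 (adjusted p = 0.00342) and 2.98 (adjusted p = 0.00284), and stayed at or below 1.99 FPKM in every library. Cma1 was at 0.22, 0.17 and 0.17 FPKM in SNI and 1.74, 1.12 and 1.99 in SNI + G15. The histamine enzyme gene Hdc had instead risen in SNI (2.01, adjusted p = 0.00014) and gave -0.38 in SNI + G15 against SNI (adjusted p = 0.287), and neither Kit (-0.05, adjusted p = 0.551) nor Gata2 (0.25, adjusted p = 0.305) was called there. Mrgprb2, Mrgprb3 and Mrgprx2, beside them, gave at most 6.02 counts in any library.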

How the data were processed

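Deposited gene tables of 9 rat DRG libraries were used. The authors sequenced paired 150 bp reads and deposited FPKM values per gene, as the sum over its transcripts, and estimated counts per gene and transcript, which need not be whole. Aligner, counter and annotation are not given in the sources used here, and the submitters' processing notes list GRCm38 and mm10, which are mouse builds, so no coordinates were taken from the files. Columns named for a control were taken as sham. Comparisons deposited by the authors were not used.

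After rounding, the estimated counts went into edgeR 4.0.16 under R 4.3.3 (TMM, quasi-likelihood test, Benjamini-Hochberg adjustment, threshold 0.05) on the 2 groups compared, over the 14305 genes with at least 1 FPKM in at least 1 library. Genes under this filter were tested over all genes with at least 1 count, and no fold is given where a group had 3 counts or fewer in each library. FPKM levels are compared between genes, since they are per length. Alternatives were DESeq2 1.42.0, limma 3.58.1 on log2(FPKM + 1) or log2(FPKM + 0.1), another normalization or filter, a joint fit of the 9 libraries, the replicate number as a block, and leaving out each library. On simulated counts for SNI against sham (14305 genes), 99% of 200 genes changed by 1 on the log2 scale were recovered, with 15 false calls. The simulation gave every gene the same dispersion, the spread between libraries. Its change was larger than that of any expressed member in SNI against sham (at most -0.58, for Mrgprd). These figures therefore need not hold for the members.

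Members, gene lists and tests were chosen with earlier results of these data known. Named genes were every Mrgpr gene, the first gene of a list, up to 3 called genes of a list with the smallest adjusted p in a comparison, Penk, Slc6a6, Runx1, P2rx3, Mas1 and Atf3, and the 5 genes most like each member, and some genes that this rule names are not reported here. Windows and gene order came from RefSeq on GRCr8, matched by symbol. Of 235 list entries 234 were found. Depth was 18484557 to 18756736 estimated counts per library.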

Additional observations from a re-analysis of the deposited data

How the results depend on the processing

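Over the 6 expressed genes and 3 comparisons, 298 of 306 values from the alternatives kept the direction and the side of the threshold. In SNI against sham Mrgprx1 no longer passed in limma-trend on log2(FPKM + 1) (-0.15) or log2(FPKM + 0.1) (-0.17), and its values with 1 library left out ran from -0.38 to -0.24. Mrgpre no longer passed with all 9 libraries in one fit (0.21). With 1 library left out, Mrgpre in SNI + G15 against SNI ran from -0.20 to 0.0213 and in SNI + G15 against sham from 0.00729 to 0.23, Mrgprf in SNI + G15 against SNI from -0.0128 to 0.15, and Mrgprb5 in SNI against sham from -0.61 to 0.32. The cause of these shifts was not tested.

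The number of genes called in SNI + G15 against SNI was 2179. With 1 library left out it ran from 893 to 2333, lowest without SNI replicate 3, so the background of 15.2% depends on which libraries are included. Replicate numbers did not pair the libraries, since 1 of 9 correlations of same-numbered libraries was over 0.1. A replicate block gave 6440 genes called in SNI against sham, 1292 in SNI + G15 against SNI and 5735 in SNI + G15 against sham, beside 6537, 2179 and 6186, and it changed no call of an expressed Mrgpr gene. DESeq2 called 5343, 1854 and 5472. Depth limits Mrgprb5, Mrgprb3, Mrgprx2, Mrgprg, Mrgprb13 and Mrgprb2, for which no change could have been seen unless it was large.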
